A study of Homo sapiens with 5 samples.

Results

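The gene-dense stretch of chromosome 11 from 63 to 68 Mb (hg19), here called the 11q13 block, held 1234 of the 196770 ZBTB7A peaks called in VCaP prostate cancer cells. Its members are the peaks of each deposited list whose summit, the position of highest signal, lies from 63000000 to 68000000. They number 263 of 34120 in the DHT list, 682 of 124868 in the FBS list and 289 of 37782 in the CSS list. The stretch was chosen by the number of peaks called in it, so its peak numbers, and the widths, q-values and fold enrichments that come from the same calls, are a description with no test. The data are ChIP-seq, the sequencing of DNA recovered with an antibody to ZBTB7A. All groups are VCaP cells, an established line with androgen receptor expression and a TMPRSS2-ERG fusion. In the DHT group (2 libraries), the androgen DHT was given at 10 nM for 4 hours, in 5% hormone-depleted serum. The FBS group (1 library) was grown in 10% full serum, and was taken as free of added DHT from its culture condition, since the labels repeat the same treatment text for every library. In the CSS group (2 libraries), cells in 5% hormone-depleted serum received vehicle for 4 hours. With 1 deposited list per group, replicate error cannot be measured, no p-value is given and sequencing depth is unknown.

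ZBTB7A, also called LRF or Pokemon, is a zinc finger protein of the BTB family that binds DNA and recruits corepressors to many promoters. It is best known for silencing fetal globin genes through a GACCC-containing element, and it has been described both as promoting and as restraining tumour growth. The 11q13 region is rich in short, broadly expressed genes. Among them are NEAT1, a long noncoding RNA that builds nuclear paraspeckles, MALAT1, an abundant long noncoding RNA of nuclear speckles, and MEN1, which encodes menin, a tumour suppressor that scaffolds histone methyltransferase complexes.

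ZBTB7A peaks lay at or near the starts of NEAT1, MALAT1 and MEN1, known here to the nearest kb, in each of the 3 lists. The promoters of MALAT1 and MEN1 are shown because the strongest or nearly strongest peak at each gene lies at or near its start. Of the 3 genes, 2 were matched in the promoter table of RefSeq (build GRCh38.p14), which runs from 250 bases before to 50 bases after a gene start. Each of them has 2 entries, and the first is printed. The MALAT1 promoter is chr11:65497488-65497787 on the plus strand and the MEN1 promoter is chr11:64810502-64810801 on the minus strand. This is not the build of the peaks, so the place of a summit within these letters was not worked out. Capitals mark the word GACCC or its reverse complement GGGTC, which do not overlap each other here.
MALAT1: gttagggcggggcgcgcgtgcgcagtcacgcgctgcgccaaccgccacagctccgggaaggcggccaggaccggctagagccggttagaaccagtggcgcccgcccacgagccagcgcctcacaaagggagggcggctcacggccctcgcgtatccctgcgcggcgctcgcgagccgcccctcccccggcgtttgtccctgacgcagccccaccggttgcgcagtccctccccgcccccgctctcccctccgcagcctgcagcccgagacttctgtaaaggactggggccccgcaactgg
MEN1: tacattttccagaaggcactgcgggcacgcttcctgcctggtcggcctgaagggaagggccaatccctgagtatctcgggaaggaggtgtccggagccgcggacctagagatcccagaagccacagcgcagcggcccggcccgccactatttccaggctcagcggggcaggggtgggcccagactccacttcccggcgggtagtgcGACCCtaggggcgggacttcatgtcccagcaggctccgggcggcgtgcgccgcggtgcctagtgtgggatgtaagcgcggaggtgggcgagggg
The word occurred once in the MEN1 promoter, at base 207 counted from the 5′ end as printed, and not in the MALAT1 window. It is a common word, held on either strand by 47.6% of the 35116 promoters in the table, and a match is not evidence of a binding site. The G and C content was 73.7% in the MALAT1 promoter and 68% in the MEN1 promoter, against a median of 58.7% over the table.

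At NEAT1 (65.19 to 65.213 Mb, extents given to the nearest kb), 1 DHT peak, 6 FBS peaks and 1 CSS peak overlapped the gene. The DHT peak spanned 65189618 to 65190205, with a fold enrichment over background of 7.72 and a −log10 q of 12.2, the authors' measure of confidence in a peak, and ranked 1988 in its list. The FBS peak at the start spanned 65189906 to 65190238, with a fold enrichment of 4.04 and a −log10 q of 21.99, and ranked 521. In CSS the peak ran from 65189587 to 65190033 and ranked 3023, at a fold enrichment of 7.60 and a −log10 q of 12.8. Their summits lay 190 bases before the gene's start in DHT (−190), 76 bases after it in FBS and 107 bases before it in CSS (−107), within the rounding of the extent. The other 5 FBS peaks were spread along the transcribed part, and the strongest of these, from 65197249 to 65197852, had a −log10 q of 10.3. The DHT and CSS lists held no further peak in the gene or within 5 kb of it. The FBS list held 2 more within 5 kb, and the one ahead of the gene (65185934 to 65186227) had a −log10 q of 11.5.

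MALAT1 (65.265 to 65.274 Mb) showed the same layout, with 1 DHT peak, 3 FBS peaks and 1 CSS peak in the gene. The DHT peak at the start (65264879 to 65265403) had a fold enrichment of 8.38 and a −log10 q of 11.5, at rank 2454. The FBS list had a peak at the start with a −log10 q of 9.88 (65264831 to 65265495, rank 6317), and the next peak, whose summit lay 878 bases into the gene, reached 11.2 at rank 4465. In CSS the peak at the start (65264919 to 65265384) had a fold enrichment of 9.85 and a −log10 q of 14.5, at rank 2223. FBS peaks also lay just beyond the 3′ end of the gene, 3 of them within 5 kb, where the DHT and CSS lists had none. The FBS list is longer as a whole, with 124868 peaks against 34120 in DHT and 37782 in CSS.

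MEN1 (64.571 to 64.578 Mb), which is read toward lower positions, had 3 DHT peaks, 2 FBS peaks and 2 CSS peaks. At its start the DHT list had a pair of peaks, the stronger from 64577426 to 64577845 with a fold enrichment of 6.98 and a −log10 q of 9.50 (rank 4667). In FBS the same place was covered by 1 peak of 630 bp (64577719 to 64578348) with a fold enrichment of 4.08 and a −log10 q of 14.0, at rank 2216. In CSS the stronger of a pair ran from 64577455 to 64577816, with a fold enrichment of 6.88 and a −log10 q of 8.86 (rank 7216). A DHT peak inside the gene, 64572005 to 64572211, had a −log10 q of 5.00 and no counterpart in the other lists. The other FBS peak of the gene, 64570806 to 64571293 across its 3′ end, had a −log10 q of 5.43 and likewise no counterpart. All 3 lists also had a peak less than 1 kb beyond the 3′ end, at a −log10 q of 8.04 in DHT, 4.96 in FBS and 7.40 in CSS. Between MEN1 and MALAT1, 687 kb apart, RefSeq lists 52 genes, 28 of them protein-coding, and the lists held 36 DHT, 70 FBS and 37 CSS summits.

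**Figure D1:**
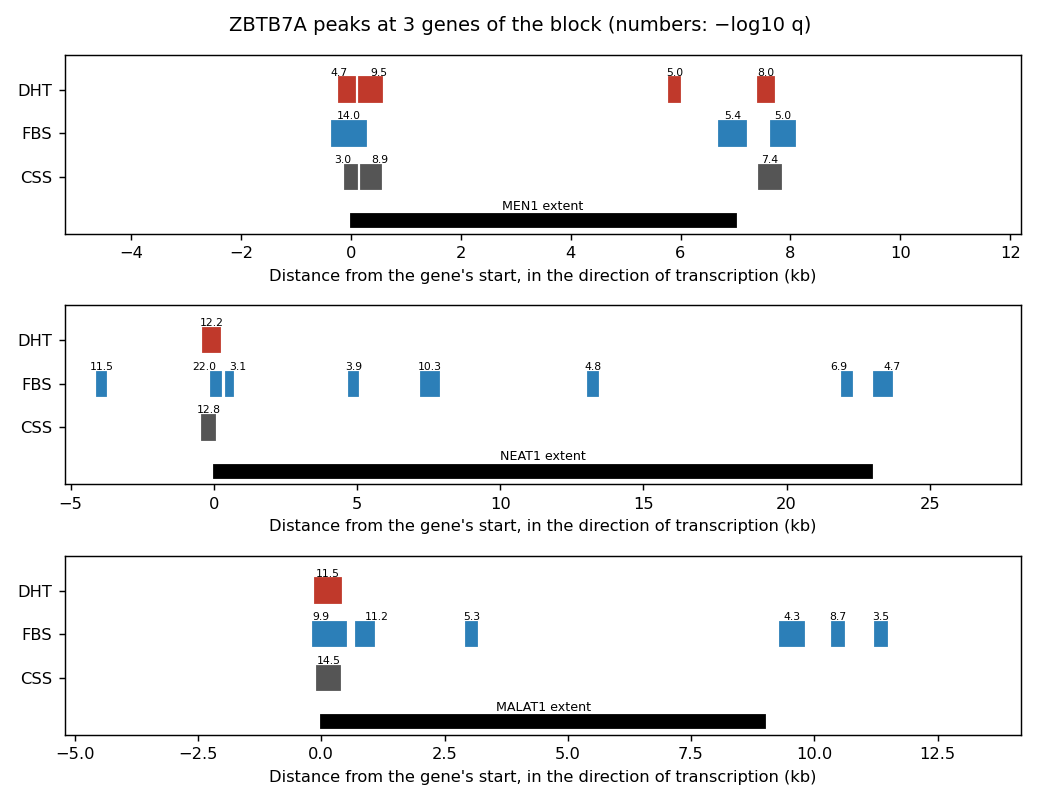
Peaks within 5 kb of MEN1, NEAT1 and MALAT1 in the DHT, FBS and CSS lists, drawn to scale along the gene in the direction of transcription (kb); the number over each box is the authors' −log10 q and the black bar is the gene's extent, known to the nearest kb. Each list has a peak at or near the start of every gene, and FBS has further peaks along NEAT1 and MALAT1. In all, 5 DHT, 11 FBS and 4 CSS peaks overlap the 3 genes, and the whole lists have 3.30 FBS peaks for each CSS peak.

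The block held more peaks than any other bin aligned to it in the DHT and CSS lists. The chromosomes were divided into 612 bins of 5 Mb that hold at least 1 peak, aligned to the block. The block's 263 DHT peaks compare with a median of 49 per bin and 152 in the next richest bin. Its 682 FBS peaks compare with a median of 191, and the block was second to chromosome 13 from 108 to 113 Mb, which held 842. In CSS it had 289 peaks, against a median of 53 and 185 in the next richest bin. Relative to the median bin this is 5.37 times in DHT, 3.57 times in FBS and 5.45 times in CSS. The same stretch moved 0.5 Mb toward the telomere held 266 DHT, 612 FBS and 290 CSS peaks. The bins on both sides held fewer peaks than the block. From 58 to 63 Mb there were 73 DHT, 237 FBS and 87 CSS peaks, and from 68 to 73 Mb there were 97, 303 and 96 in the same lists. The block had 0.910 DHT peaks for each CSS peak, where the whole lists have 0.903, and 2.36 FBS peaks for each CSS peak, where the lists have 3.30.

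**Figure D2:**
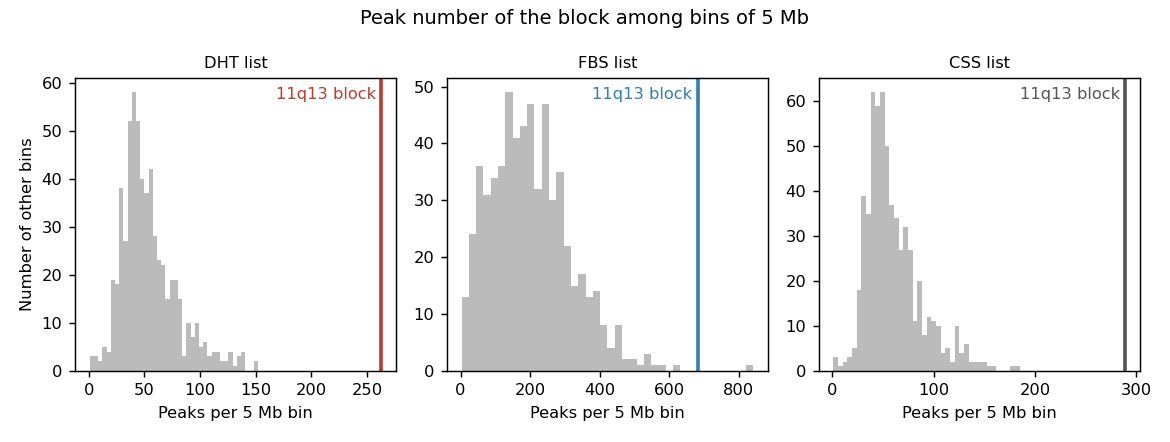
Number of peaks in each 5 Mb bin of the chromosomes (horizontal axis) and number of bins with that value (vertical axis), for the DHT, FBS and CSS lists. The vertical line marks the 11q13 block, at 263, 682 and 289 peaks, beyond all other bins in DHT and CSS and beyond all but 1 in FBS.

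Block peaks were wide and ranked high by q-value. Their median width was 394 bp in DHT, 334 bp in FBS and 393 bp in CSS, against 249, 258 and 239 bp in the rest of those lists. In each list the block had the second widest median among the bins with at least 20 peaks, of which there were 595 in DHT, 602 in FBS and 603 in CSS. Peaks of at least 1000 bp made up 6.84% of the block and 1.32% of the rest in DHT, 5.28% and 0.955% in FBS, and 6.23% and 1.84% in CSS. Each list was divided into deciles by −log10 q. The highest decile took in 53 of the block's DHT peaks (20.2%), 212 of its FBS peaks (31.1%) and 65 of its CSS peaks (22.5%). A −log10 q of 10 or more was reached by 61 DHT peaks (23.2%, against 11.8% of the rest), 124 FBS peaks (18.2%, against 4.84%) and 86 CSS peaks (29.8%, against 14.4%).

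At the same q-value rank, block peaks had lower fold enrichment than peaks elsewhere. Each peak's fold enrichment was divided by the median of its own decile of the list. The block's median ratio to its decile was 0.861 in DHT, 0.644 in FBS and 0.851 in CSS (−0.22, −0.63 and −0.23 on the log2 scale). Below the median of their decile were 218 of 263 DHT peaks (82.9%, against 44.5% of the list), 654 of 682 FBS peaks (95.9%, against 41.1%) and 258 of 289 CSS peaks (89.3%, against 44.5%). Among bins with at least 20 peaks, the block's log2 median was the lowest of 602 in FBS, the next to lowest of 595 in DHT (rank 2) and the third lowest of 603 in CSS. In the highest decile, the median fold enrichment was 8.14 in the block and 9.41 in the rest of the DHT list, 3.97 and 6.48 in FBS, and 8.10 and 9.72 in CSS. No FBS peak of the block exceeded a fold enrichment of 9.13, while the rest of the list reached 23.1. The chromosome 13 bin with more FBS peaks had a log2 median of −0.44 in FBS. The block held 0.546% of all FBS peaks, 2.02% of those at a −log10 q of 10 or more and 0.150% of those with a fold enrichment of 5 or more. Comparison with peaks of the same decile and the same class of width left the log2 medians at −0.18 in DHT, −0.63 in FBS and −0.22 in CSS.

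**Figure D3:**
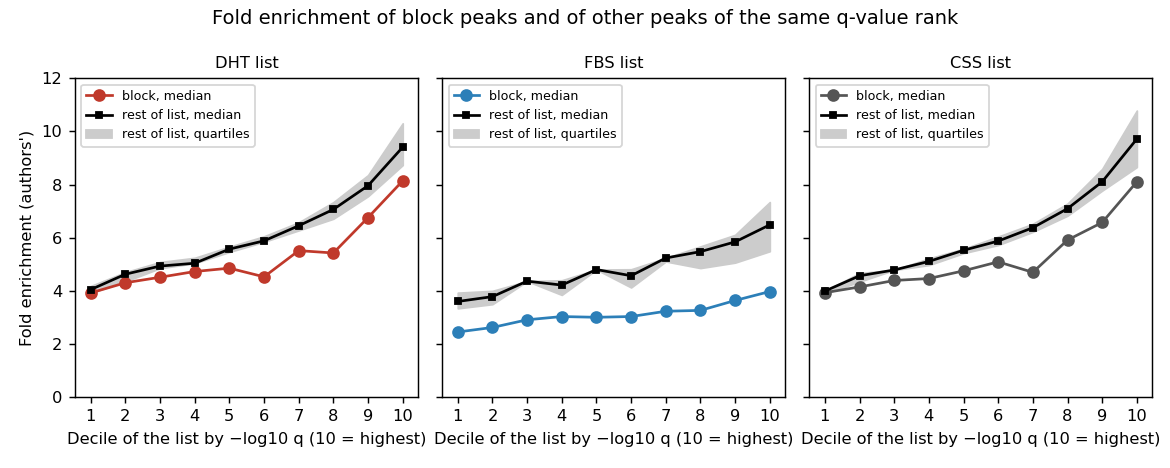
Median fold enrichment (authors' values, no unit) of block peaks and of other peaks in each decile of the DHT, FBS and CSS lists by −log10 q, with the quartiles of the rest of the list shaded. Block medians lie below those of the rest in every decile of each list, with the widest separation in FBS.

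The 10 leading sites of the block were called under all 3 conditions. The 5 peaks with the highest −log10 q of each list come to these 10 sites. Each had a partner, a peak that overlaps by at least 1 bp, in both other lists. In the whole highest decile, 46 of 53 block DHT peaks (86.8%, against 45.0% in the rest) and 56 of 65 CSS peaks (86.2%, against 45.5%) had both partners. Of 212 FBS peaks there, 134 (63.2%, against 53.9%) had a DHT or CSS partner. They are given by position, since no gene annotation of this build was used. The top site of the block in each list ran from 63535558 to 63536085 in DHT (−log10 q of 31.6, rank 30), from 63535053 to 63536056 in FBS (47.3, rank 55) and from 63535602 to 63536062 in CSS (31.7, rank 125). Another site among the leaders of DHT and FBS, at 67888890 to 67889292 in DHT, had a −log10 q of 22.1 (rank 127) there, 31.8 (rank 172) in FBS and 22.2 (rank 583) in CSS. The site at 63438241 to 63439280 in DHT, 1040 bp wide, reached 19.1 (rank 247) in DHT, 27.2 (rank 287) in FBS and 28.0 (rank 210) in CSS. At 67210605 to 67211254 the values were 19.1 (rank 247) in DHT, 12.6 (rank 3202) in FBS and 24.2 (rank 410) in CSS.

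The remaining leaders were among the first 5 of the block in 1 list only. The DHT peak at 66138859 to 66139581 had the highest fold enrichment of any DHT peak in the block, 11.2, and ranked 37 with a −log10 q of 29.9, while its partners ranked 493 in FBS and 1364 in CSS. Among the FBS leaders, 65082433 to 65083455 ranked 56 in FBS (47.2) and its partners 1707 in DHT and 1629 in CSS. The FBS peak at 66025199 to 66026298 ranked 101 (37.6), with partners at 370 in DHT and 593 in CSS. The FBS peak at 63952503 to 63953219 ranked 162 (32.3), with partners at 603 in DHT and 3780 in CSS. Less than 1 kb further on, the CSS leader at 63953631 to 63954182 ranked 337 in CSS (25.4) and 1033 in DHT, but 99362 in FBS with a −log10 q of 3.47. The CSS leader at 66725447 to 66726067 had the highest fold enrichment of the CSS members, 11.8, and ranked 440 in CSS, 1639 in DHT and 4212 in FBS. Ranks come from lists of unequal length and show no change between conditions.

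Peaks called with and without DHT overlapped widely in the block. Of its DHT peaks, 202 of 263 (76.8%, exact 95% Clopper-Pearson interval 71.2 to 81.8%) had a CSS partner, where the whole DHT list has 63.9%. Of its CSS peaks, 197 of 289 (68.2%, 62.5 to 73.5%) had a DHT partner, where the CSS list has 56.8%. These intervals cover counting error only, and neighbouring peaks are not independent. An overlap is more likely where peaks are dense and wide, and the block was chosen for its density, which was not matched here, so the shares are a description. Block peaks are also wider and rank higher. When the rest of each list was re-weighted to the block's spread over deciles and widths, its shares were 77.0% for DHT, inside the block's interval, and 74.4% for CSS, above it. Where 50% of both peaks had to overlap, 61.6% of block DHT peaks and 48.4% of the rest had a CSS partner. For CSS peaks with a DHT partner these shares were 56.1% and 43.7%. With summits within 100 bp as the rule, the shares were 41.4% in the block and 41.8% in the rest for DHT peaks (difference −0.40 points, Newcombe interval −6.22 to 5.65) and 37.7% and 37.8% for CSS peaks (−0.08 points, −5.49 to 5.66).

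Peaks without a partner in the other list of hormone-depleted serum were mostly outside the highest decile, in the block as elsewhere. There were 61 DHT peaks without a CSS partner (23.2%, against 36.1% of the DHT list) and 92 CSS peaks without a DHT partner (31.8%, against 43.2% of the CSS list). In the highest decile, 98.1% of block DHT peaks and 95.4% of those in the rest of the list had a CSS partner, and 98.5% of block CSS peaks and 97.0% of those in the rest had a DHT partner. The 3 DHT peaks of this kind with the highest −log10 q lay at 66277991 to 66278251 (10.6, fold enrichment 8.89), 63212071 to 63212348 (10.1, 8.70) and 65853571 to 65853845 (9.70, 8.47). Their CSS counterparts lay at 64738900 to 64739294 (12.6, fold enrichment 8.85), 65414043 to 65415018 (10.4, 5.81) and 65029609 to 65029894 (10.18, 8.03). All 6 sites had an FBS peak, with a −log10 q between 3.29 at 65414043 to 65415018 and 15.2 at 66277991 to 66278251. These 6 were the highest of their kind and do not stand for the others. After overlapping peaks of the block were merged, 21 regions were in DHT and FBS alone, and 35 were in DHT alone. Another 23 were in FBS and CSS alone, and 60 were in CSS alone. The shares elsewhere are given below.

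Peaks of hormone-depleted serum overlapped FBS peaks more often in the block, where FBS peaks covered 296 kb, than elsewhere. An FBS partner was present for 190 DHT peaks (72.2%, 66.4 to 77.6%), where the DHT list has 48.2%, and for 194 CSS peaks (67.1%, 61.4 to 72.5%), where the CSS list has 44.1%. In the rest of the lists the shares were 48.0% for DHT and 43.9% for CSS. Among the strongest peaks the separation was wider. In the highest decile, 47 of 53 DHT peaks (88.7%) and 57 of 65 CSS peaks (87.7%) had an FBS partner, against 46.4% and 46.5% of the highest decile outside the block. Re-weighting the rest by decile and width gave 55.9% for DHT and 54.3% for CSS, below the block's intervals, with density again not matched. In the other direction, 201 FBS peaks (29.5%, 26.1 to 33.1%) had a DHT partner, against 13.3% of the list, and 204 (29.9%, 26.5 to 33.5%) had a CSS partner, against 13.5%. For FBS peaks the rest re-weighted by decile and width gave 25.1% with a DHT partner and 25.5% with a CSS partner. Where 50% of both peaks had to overlap, 35.4% of block DHT peaks and 23.1% of the rest had an FBS partner. For CSS peaks these shares were 28.7% and 20.8%. By the rule on summits the excess was smaller still. An FBS summit within 100 bp was present for 23.6% of block DHT peaks and 22.3% of the rest (difference 1.24 points, −3.51 to 6.74), and for 20.8% of block CSS peaks and 19.7% of the rest (1.03 points, −3.26 to 6.10). For FBS peaks the shares were 9.09% in the block and 6.09% in the rest with a DHT summit, and 8.80% and 5.96% with a CSS summit. In overlapping pairs of DHT and FBS peaks the median distance between summits was 174.5 bp in the block and 110 bp elsewhere, and in pairs of DHT and CSS peaks it was 93.5 bp and 63 bp. Block peaks are wider, and these distances were not matched for width. Across the 202 shared DHT peaks, Spearman's rho between the −log10 q of the DHT and CSS peaks was 0.592, against 0.461 in the rest of the DHT list. It was 0.473 for DHT peaks and their FBS partners in the block (n = 190), against 0.06 in the rest, and 0.347 for FBS peaks and their CSS partners (n = 204), against 0.08. These values describe neighbouring sites that share lists and carry no test.

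**Figure D4:**
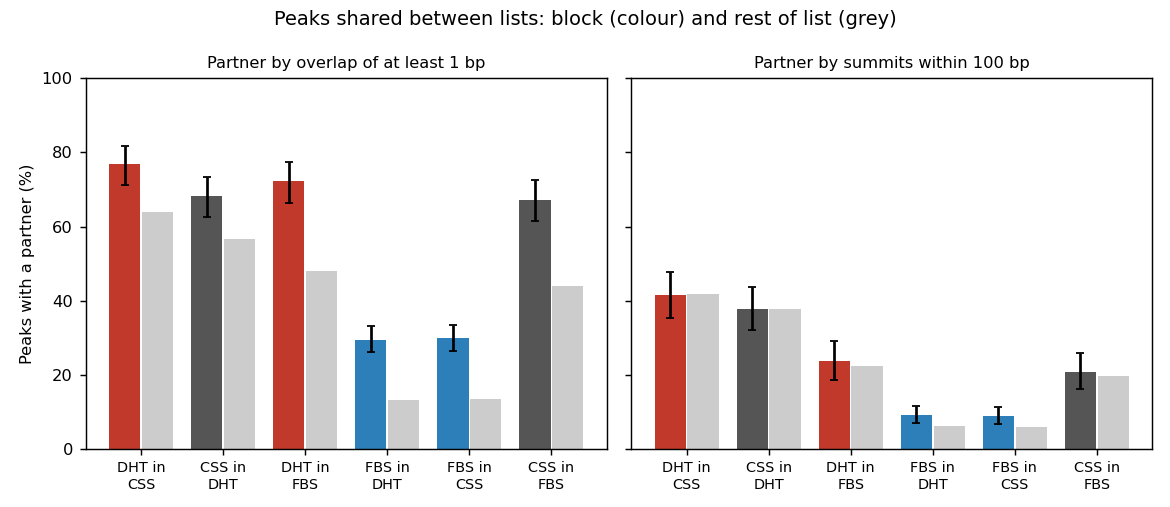
Percentage of peaks with a partner in another list, for block peaks (coloured bars, with exact 95% intervals) and for the rest of the same list (grey bars); "DHT in CSS" means DHT peaks with a CSS partner. With overlap of at least 1 bp (left) block shares are higher for all 6 pairs, and with summits within 100 bp (right) the 4 pairs that start from DHT or CSS peaks are nearly level, at 41.4% and 41.8% for DHT in CSS.

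After overlapping peaks were merged, the block held 769 regions. Peaks of all 3 lists shared 149 of them (19.4%, 16.6 to 22.3%), against 7.61% of regions elsewhere. DHT and FBS alone shared 21 (2.73%, against 2.61% elsewhere), DHT and CSS alone 31 (4.03%, against 5.98%), and FBS and CSS alone 23 (2.99%, against 2.69%). A further 35 regions were in DHT alone (4.55%), 450 in FBS alone (58.5%) and 60 in CSS alone (7.80%), against 5.11%, 68.4% and 7.57% elsewhere. There were 38 DHT peaks with a CSS partner and no FBS partner (14.4%, against 29.2% of the DHT list). Among DHT peaks with a −log10 q of 10 or more these were 6 of 61 in the block (9.84%) and 1994 of 3979 in the rest (50.1%). The leading pair, named after their values were seen, lay at 67365655 to 67366048 (13.9 in DHT, 13.7 in CSS) and 65006166 to 65007263 (13.5 in DHT, 14.0 in CSS).

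Along the block, windows rich in DHT peaks were also rich in CSS peaks, and FBS peaks were distributed differently. Over 50 windows of 100 kb, Spearman's rho between counts was 0.822 for DHT and CSS, 0.02 for DHT and FBS and −0.07 for FBS and CSS, a description over adjoining windows. A window held a median of 5 DHT, 12.5 FBS and 5.5 CSS peaks. The number of FBS peaks for each CSS peak had a median of 1.80 over the 47 windows with a CSS peak and ranged from 0.786 to 22. The richest window in all lists together, from 64000001 to 64100000, held 16 DHT, 26 FBS and 19 CSS peaks. It belongs to the longest runs of summits less than 10 kb apart in DHT (8 peaks, 63986870 to 64018860) and in CSS (13 peaks, 63986729 to 64039131). Next came the window from 65600001 to 65700000, with 12, 16 and 10 peaks in the same lists, and then a tie between 63300001 to 63400000 (4, 26 and 5) and 63400001 to 63500000 (3, 30 and 2). Summits of the block lay at a median of 11952 bp from the next in DHT, 5414 bp in FBS and 10520 bp in CSS, against 48878, 10906 and 46696 bp on the rest of chromosome 11. Between neighbouring summits of the block, the longest stretches ran from 65853718 to 66025502 in DHT, from 64347926 to 64410316 in FBS and from 67585315 to 67722929 in CSS. In DHT and CSS the stretch from the proximal edge to the first summit, at 63212227 and 63258526, was longer and is not counted here.

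The first 0.5 Mb of the block held mainly FBS peaks. It held 10 DHT, 112 FBS and 8 CSS peaks, or 20, 224 and 16 per Mb, against 56.2, 127 and 62.4 per Mb in the other 4.5 Mb. Of these, 7 of the 112 FBS peaks (6.25%, 2.55 to 12.5%) had a DHT or CSS partner, against 225 of 570 (39.5%, 35.4 to 43.6%) in the rest of the block and 17.2% of the whole FBS list. The first pair of windows held 13 and 21 FBS summits and none of the other lists. All 3 of the strongest FBS peaks of the block without a partner lay here, at 63399155 to 63399577 (−log10 q of 19.3, fold enrichment 4.93), 63202754 to 63203638 (16.2, 8.60) and 63128361 to 63129099 (16.2, 9.13). In all, 450 FBS peaks of the block (65.98%, against 82.8% of the list) had no partner in DHT or CSS. The longest run of FBS summits, 39 peaks from 63449363 to 63581261, spans the end of this stretch and includes the block's strongest site. Fold enrichment was closer to that of other peaks here, with log2 medians over the decile of −0.01 in DHT, −0.40 in FBS and −0.0006 in CSS, against −0.23, −0.68 and −0.24 in the other 4.5 Mb. The FBS values were uneven within this stretch. Of the 3 FBS peaks named above, those at 63128361 and 63202754 lay above their decile median (log2 of 0.50 and 0.41). The one at 63399155 lay below it (−0.39).

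**Figure D5:**
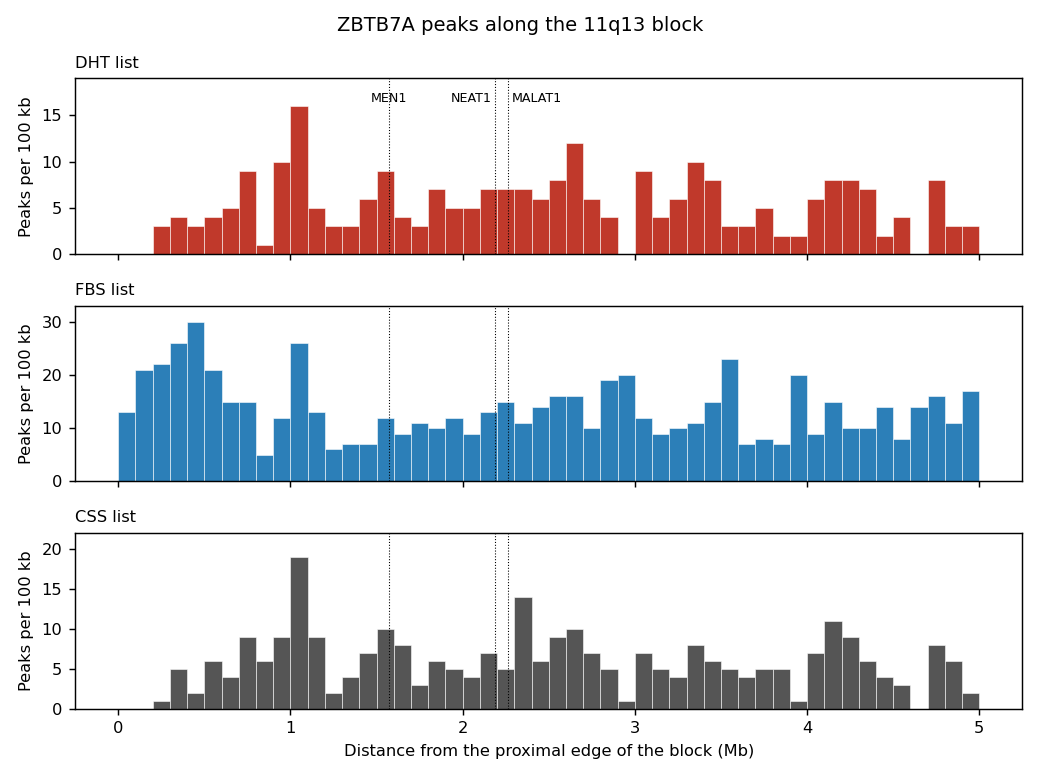
Peaks per window of 100 kb (vertical axis, a scale of its own for each list) against distance from the proximal edge of the block (Mb), for the DHT, FBS and CSS lists, with dotted lines at MEN1, NEAT1 and MALAT1. DHT and CSS share a maximum of 16 and 19 peaks at 1 Mb from the edge, while FBS is densest, with up to 30 peaks, in the first 0.5 Mb.

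The edges of the block are round positions. At the proximal edge, the DHT peaks on either side were 63212071 to 63212348 inside (−log10 q of 10.1) and 62992432 to 62992629 outside (1.83). For FBS they were 63003587 to 63003811 inside and 62995154 to 62995368 outside, both at 2.84, and for CSS 63258352 to 63258787 inside (20.3) and 62979375 to 62979632 outside (2.49). At the distal edge the last member in DHT was 67981164 to 67982149 (6.92) and the first peak beyond was 68025929 to 68026126 (4.34). In FBS these were 67981780 to 67982130 (4.00) and 68015783 to 68015997 (3.41), and in CSS 67980961 to 67982009 (7.02) and 68039179 to 68039871 (10.7).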

How the data were processed

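ZBTB7A ChIP-seq peaks were analysed in 3 narrowPeak lists deposited by the authors, 1 each for DHT, FBS and CSS, on hg19 (GRCh37). Tools named in the submitters' processing notes are MACS2 2.0.10.20131216, BWA 0.7.2-r351 and SAMtools 0.1.18, with no role stated. The sources used here do not say how libraries were combined, which control served or which threshold applied. Fold enrichment is a ratio over background and −log10 q a measure of confidence, both deposited by the authors, and the score deposited by the authors is the whole part of 10 times −log10 q. The values depend on depth, which is unknown, and were used only within a list.

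Positions are written with a first base of 1. Members were taken by summit, partners by an overlap of at least 1 bp, deciles by rank of −log10 q. Shares have exact Clopper-Pearson 95% intervals and differences of summit shares Newcombe intervals. Computations ran in Python 3.11.15 (scipy 1.17.1, pandas 2.3.3, numpy 2.4.6, matplotlib 3.10.9), and overlaps were tested on simulated data and against bedtools 2.31.1. RefSeq tables are on GRCh38.p14 and gave names, order and promoter sequences only, with no coordinates converted. Peaks were named by a fixed rule: those at NEAT1, MALAT1 and MEN1, the 5 highest by −log10 q per list, the 3 highest without a partner, those at the edges, and the 3 richest windows. The members, genes and tests were chosen with earlier results of these data known. Comparisons by gene start and by sequence at summits were planned but not run, since no annotation or sequence of hg19 was used. Alternatives are given in the closing section.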

Additional observations from a re-analysis of the deposited data

How the results depend on the processing

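Alternatives changed 1 choice at a time, and 51 of the resulting values stayed close to the one reported (inside its interval, or within 1.5 times) and 45 moved further. Most of these values are shares or counts, which have no sign. With summits within 100 bp, block and rest were nearly level for DHT peaks in CSS (−0.40 points, −6.22 to 5.65), against 12.96 points with 1 bp of overlap. The same held for CSS peaks in DHT (−0.08 points, −5.49 to 5.66, against 11.5). Where 50% of both peaks had to overlap, these differences were 13.2 and 12.4 points. With the rest re-weighted by decile and width, CSS peaks in DHT had the lower share in the block (68.2%, against 74.4%). The first 0.5 Mb, the re-weighting and all alternatives for relative fold enrichment were chosen after the results were seen. No paired analysis was possible because each condition has 1 list, although DHT and CSS libraries are numbered alike. Leaving out a library was impossible too. Alternatives for gene starts and sequence at summits were not run. Relative fold enrichment ranged from −0.25 to −0.18 in DHT, −0.68 to −0.62 in FBS and −0.26 to −0.22 in CSS over its alternatives. Where the construction (fewer peaks, a stricter overlap) does not show the cause, the cause was not tested.

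The block's part of the list, 0.771% in DHT, 0.546% in FBS and 0.765% in CSS, became 0.982%, 0.787% and 1.18% at a −log10 q of 5 or more and 1.51%, 2.02% and 1.57% at 10. It was 0.643% in DHT and 0.150% in FBS at a fold enrichment of at least 5, 1.02% in FBS with equal numbers of top peaks, and 0.490% in FBS with the block moved 0.5 Mb toward the telomere. The following shares are for DHT in CSS, CSS in DHT, DHT in FBS, FBS in DHT, FBS in CSS and CSS in FBS, in that order. They were 61.6%, 56.1%, 35.4%, 13.6%, 12.2% and 28.7% where 50% of each peak had to overlap. A limit of 100 bp between summits gave 41.4%, 37.7%, 23.6%, 9.09%, 8.80% and 20.8%. For members at a −log10 q of 5 or more the shares were 85.5%, 79.4%, 83.2%, 43.8%, 42.3% and 75.2%, and at 10 they were 96.7%, 96.5%, 90.2%, 71.8%, 70.2% and 83.7%. With peaks within 500 bp counted as partners, 83.3% of DHT peaks had one in CSS, 79.1% of DHT peaks one in FBS, 37.2% of FBS peaks one in DHT and 37.0% of FBS peaks one in CSS. With equal numbers of top peaks, 61.2% of DHT peaks had an FBS partner, 46.7% of FBS peaks a DHT partner, 45.5% of FBS peaks a CSS partner and 56.6% of CSS peaks an FBS partner. Without the first 0.5 Mb, 34.0% of FBS peaks had a DHT partner and 34.9% a CSS partner. With 5 kb added on both sides, FBS peaks at the 3 genes rose to 17, against 11 in the genes themselves.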
